A study of Homo sapiens with 24 samples.

Results

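The Frizzled receptor family was examined in 3 human colorectal cancer cell lines with and without β-CATENIN. The family was taken as the 10 genes *FZD1* to *FZD10*, chosen by name, and each matched 1 of the 58051 gene identifiers counted in every library. RNA was sequenced from clones of HT29, HCT116 and SW480 cells. HT29 and SW480 carry inactivating mutations of *APC*, while HCT116 carries an activating mutation of *CTNNB1* itself. In *CTNNB1* knock-out (KO) clones exon 7 had been deleted from both alleles with CRISPR/Cas9, which shifts the reading frame. Wild-type (WT) clones had been through the same editing and cloning steps and kept the intact locus. The labels name no drug or ligand for any group, and all cells were kept in the same medium with serum. Each line had 2 WT and 2 KO clones, each grown and sequenced in rounds A and B, which gave 24 libraries. Clones 11 and 40 of HT29, 4 and 6 of HCT116, and 4 and 5 of SW480 were WT, whereas clones 28 and 38, 44 and 47, and 17 and 21 were KO. Libraries carry the clone number with the round, as in KO 28A. Since 4 libraries of a genotype came from only 2 clones, p-values measure the spread between these libraries and not between many independently edited clones.

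Frizzled proteins are the membrane receptors for WNT ligands. A WNT bridges a Frizzled and the co-receptor LRP5 or LRP6, Dishevelled is recruited, and the destruction complex that removes β-CATENIN is held back. Without LRP, the same receptors feed the planar cell polarity pathway. The ubiquitin ligases RNF43 and ZNRF3 take Frizzleds off the cell surface, and R-spondins bound to LGR receptors remove these ligases in turn. By sequence the family falls into FZD1, FZD2 and FZD7, then FZD5 and FZD8, then FZD4, FZD9 and FZD10, and finally FZD3 and FZD6. In the intestine FZD7 is known as a receptor of the crypt stem cell and FZD5 as a receptor of Paneth cells.

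Among the 9 members tested in SW480, *FZD1* and *FZD8* differed most in size between KO and WT clones. Their promoter windows are shown for that reason. Windows from 250 bases before to 50 bases after the gene start were given by RefSeq on GRCh38.p14 for 5 of the 10 members, namely *FZD1*, *FZD4*, *FZD5*, *FZD8* and *FZD9*. The window of *FZD1* lies on the plus strand at chr7:91264183-91264482 and that of *FZD8* on the minus strand at chr10:35642247-35642546. Both are printed 5′ to 3′ in the direction of transcription, and capitals mark matches, on either strand, to the CCAAT box, to the TATA box with the letters TATAAA or to the GC box with the letters GGGCGG.
FZD1: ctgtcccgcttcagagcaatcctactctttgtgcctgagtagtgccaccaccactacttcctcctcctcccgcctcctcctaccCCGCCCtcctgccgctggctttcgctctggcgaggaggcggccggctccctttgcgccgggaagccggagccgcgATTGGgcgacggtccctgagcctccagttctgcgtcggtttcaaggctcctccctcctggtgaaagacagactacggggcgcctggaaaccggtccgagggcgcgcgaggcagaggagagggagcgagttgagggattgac
FZD8: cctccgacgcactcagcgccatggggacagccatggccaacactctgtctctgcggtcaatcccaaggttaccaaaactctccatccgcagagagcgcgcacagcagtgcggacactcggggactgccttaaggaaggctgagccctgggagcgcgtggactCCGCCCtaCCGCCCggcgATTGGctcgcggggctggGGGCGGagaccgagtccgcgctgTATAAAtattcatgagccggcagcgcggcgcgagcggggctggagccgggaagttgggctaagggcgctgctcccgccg
The core bound by TCF/LEF factors, CTTTG followed by A or T at each of the next 2 positions, was searched on both strands in all 4 spellings. It was in 0 of the 5 Frizzled windows, and 13.8% of all 35116 windows of this length held it. A CCAAT box was in the windows of *FZD1*, *FZD4*, *FZD5* and *FZD8* and in 34.6% of all windows. A TATA box was in that of *FZD8* alone among the 5 and in 11.5% of all windows. All 5 windows held a GC box, against 45.0% overall. These other motifs were picked after the values were known, and a match of letters is a description of the window and not a binding site. The 5 windows had a GC content of 65.7% (*FZD1*) to 79.7% (*FZD4*), against a median of 58.7% over all windows. The part of base composition in the matches, and in the absence of the TCF/LEF core, was not tested.

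Values are normalized counts, which are reads per gene divided by 1 size factor per library and are comparable between libraries for the same gene. Reads assigned to genes numbered 22297049 to 29068378 in a library. The targeted transcript, *CTNNB1*, was at 5883 to 50939 in the WT and 187 to 1312 in the KO libraries over all lines, and *AXIN2*, a feedback target of β-CATENIN, at 266.1 to 12213 and 6.66 to 591. Within each line all KO libraries lay below all WT libraries for both genes. The *AXIN2* value of 591 was in SW480, where the lowest WT library was at 11049. Of 10 markers of colonic epithelium, 8 were detected well enough to be tested in HT29 and 7 in HCT116 and in SW480. Their summed normalized count was 322780 to 453709 in WT and 463465 to 750619 in KO libraries of HT29, 131455 to 161228 and 135930 to 194201 in HCT116, and 142500 to 197517 and 152943 to 177138 in SW480. *CDX1* had no read in HCT116 or SW480. Of 9 markers of blood, vessel and stromal cells the sums stayed between 41.6 and 760.1 in every library. Library HCT116 KO 47A stood apart with 35449 genes above 0, against 20256 to 24944 in the other 23, and HT29 KO 38B had the fewest.

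In SW480 the loss of β-CATENIN went with a shift in which Frizzled transcripts predominated. *FZD1*, a close relative of *FZD2* and *FZD7*, was 2.94-fold higher in KO clones, while *FZD8* was 3.43-fold lower. A gene was called when limma gave it an adjusted p under 0.05 (Benjamini-Hochberg, over all tested genes) and a log2 fold change over 1 in size. Of the 9 members tested, *FZD1* and *FZD8* were called, beside 2852 of 16325 genes tested in SW480, or 17.5%. By the adjusted p alone 7 of the 9 changed, which were the members other than *FZD2* and *FZD6*, against 48.1% of all genes. The family was therefore read by the size of each change and not by the number of members past the threshold.

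*FZD1* (ENSG00000157240, GRCh37 chr7:90893748-90900641, plus strand, 1 exon) was at 1270.5, 1274, 1145 and 1210 in the SW480 libraries WT 4A, 4B, 5A and 5B. In KO 17A, 17B, 21A and 21B it was at 3126, 2820, 4528 and 4191. Every KO library was above every WT library, and KO 21 was above KO 17. The mean rose from 1225 ± 60.8 to 3666 ± 822 (SD, n = 4), a log2 fold change of 1.55 (standard error 0.14, limma adjusted p = 9.15e-06). With the rounds of a clone averaged, so that 2 clones stood against 2, the limma adjusted p was 0.00482, and all 21 alternatives called the gene. Its level still differed between the KO clones, by 0.55 on the log2 scale (standard error 0.08, limma adjusted p = 7.37e-05), less than the difference between genotypes.

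*FZD8* (ENSG00000177283, GRCh37 chr10:35927175-35931224, minus strand, 1 exon) was a low transcript; its product is the Frizzled whose WNT-binding domain has been solved in complex with a WNT. It was at 80.9, 80.9, 65.6 and 80.3 in SW480 WT 4A, 4B, 5A and 5B and at 32.9, 25.7, 14.0 and 18.2 in KO 17A, 17B, 21A and 21B. The groups did not overlap. The log2 fold change was −1.78 (standard error 0.26, limma adjusted p = 0.000265), the gene was called under all 21 alternatives, and with the clones averaged the limma adjusted p was 0.0197. The KO values rest on 97 reads over 4 libraries.

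*FZD7* (ENSG00000155760, GRCh37 chr2:202898578-202903164, plus strand, 1 exon) was the most abundant member in SW480 WT cells. Its values were 2680, 2366, 2614 and 2532 in WT 4A, 4B, 5A and 5B and 1392, 1383, 1632 and 1567 in KO 17A, 17B, 21A and 21B. All KO libraries were below all WT libraries. The fall of 0.77 on the log2 scale (standard error 0.08, limma adjusted p = 1.65e-05) kept an adjusted p under 0.05 in all 21 alternatives, but its size was under the threshold of 1, so that *FZD7* was not called.

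*FZD9* (ENSG00000188763, GRCh37 chr7:72848108-72850450, plus strand, 1 exon) was at 228, 243, 190 and 216 in SW480 WT 4A, 4B, 5A and 5B and at 128, 125, 174 and 123 in KO 17A, 17B, 21A and 21B. Here KO 21A was closer to the WT libraries than to its own round B. The log2 fold change was −0.68 (standard error 0.15, limma adjusted p = 0.00310, or 0.0570 with the clones averaged). *FZD3*, which with *FZD6* is best known from planar cell polarity and axon guidance, had values of 507 to 566 in WT and 302 to 384 in KO libraries of SW480. Its log2 fold change of −0.67 (standard error 0.11, limma adjusted p = 0.000491) kept an adjusted p under 0.05 in all 21 alternatives. *FZD5* was at 210 to 257 in WT and 246 to 327 in KO libraries, and these ranges overlapped. Its adjusted p of 0.0435 from limma stayed under 0.05 in only 6 of 21 alternatives.

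*FZD10* (ENSG00000111432, GRCh37 chr12:130647004-130650285, plus strand, 1 exon) is found in few normal adult tissues, and here only SW480 WT cells held more than a stray read. It was at 8.09, 11.9, 25.1 and 26.4 in WT 4A, 4B, 5A and 5B, 74 reads in all, and had 0 reads in each of the 4 KO libraries. Taking 3 reads as the limit that a count of 0 allows in a library, the KO level was at least 6.21-fold lower than the WT mean. The gene had too few libraries at a value of 10 to enter the test. An exact two-sided permutation test of the 4 KO against the 4 WT libraries gave p = 0.0286, the smallest value that 4 against 4 libraries can give. The test treats rounds of a clone as separate, so that this p does not measure the spread between clones. The WT clones themselves differed, with means of 10.0 in WT 4 and 25.8 in WT 5. In the limma fit with no filter on low values *FZD10* was called in SW480. Only the WT libraries held reads there, so that this call carries no weight of its own. Its neighbour *FZD10-AS1*, a long non-coding RNA that starts 203 bases away on the opposite strand without overlapping it, was at 12.1 to 40.1 in the WT and at 0 in the KO libraries. In 3 of the 4 HT29 and HCT116 groups *FZD10* had 0 reads in every library, and in HCT116 KO a single read was found, in KO 47A.

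*FZD6* and *FZD2* did not pass the test in SW480. *FZD6* (ENSG00000164930, GRCh37 chromosome 8 from 104310661 to 104345094, plus strand) was at 1183 to 1328 in WT and 1181 to 1255 in KO libraries. Its log2 difference was −0.05 with a 95% interval from −0.20 to 0.09 (limma adjusted p = 0.538). *FZD2* (ENSG00000180340, GRCh37 chr17:42634852-42638630, plus strand, 1 exon), a receptor used by WNT5A, was at 543 to 580 and 474 to 566, with a log2 difference of −0.10 and an interval from −0.29 to 0.08 (limma adjusted p = 0.331).

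**Figure D1:**
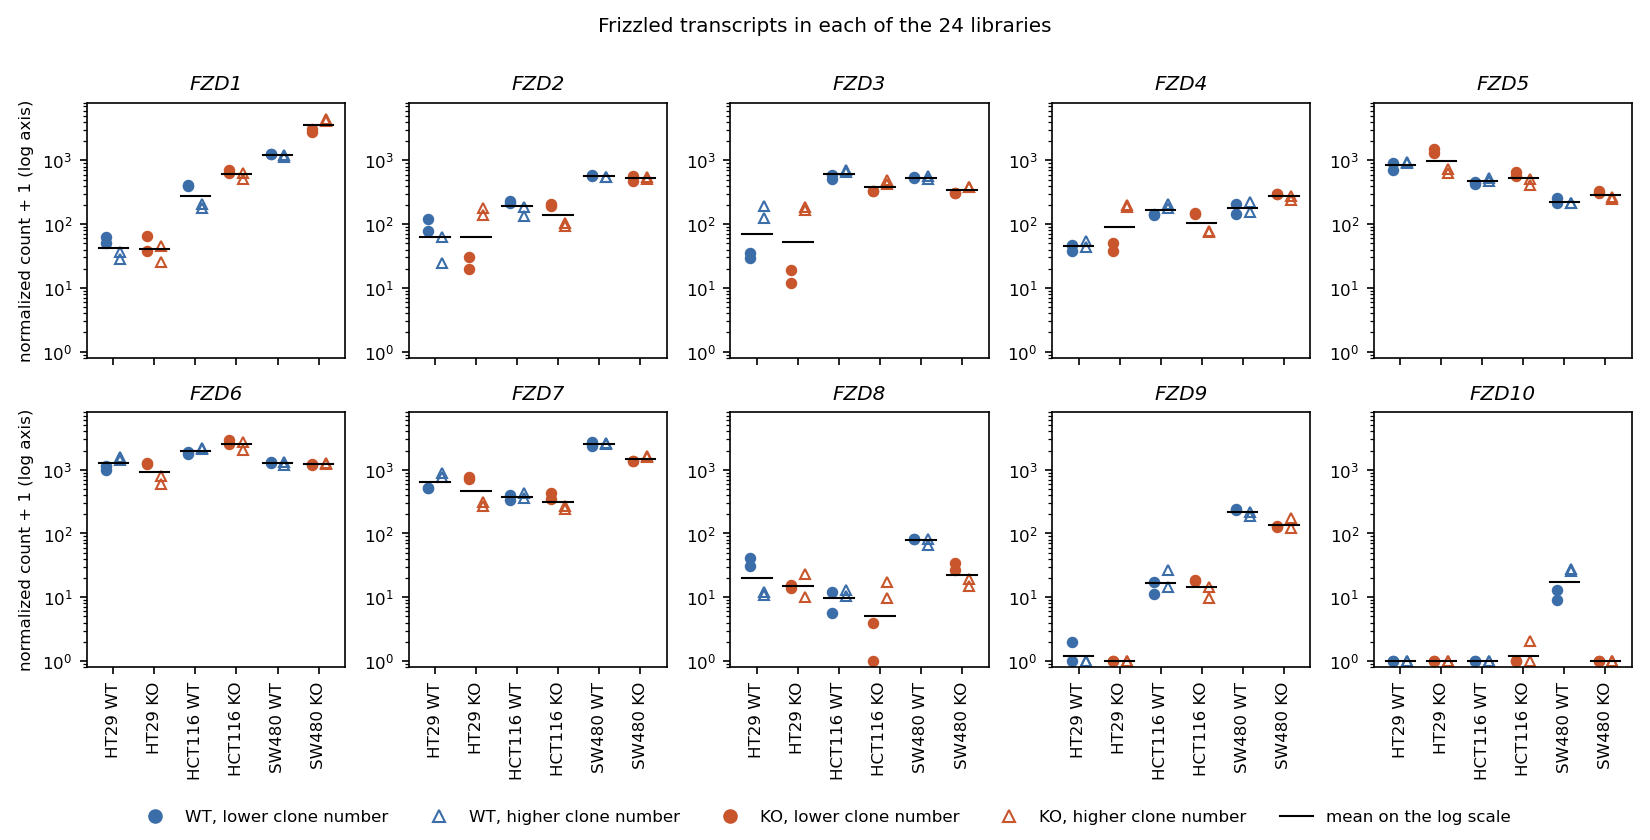
Normalized count plus 1 on a log axis for each Frizzled gene in the 24 libraries, in 6 groups of line and genotype; circles and triangles are the clones with the lower and the higher number of a group, and bars are means on the log scale. *FZD1* in SW480 lies at 1145 to 1274 in WT and 2820 to 4528 in KO libraries, whereas the HT29 KO clones lie apart for *FZD2*, *FZD3* and *FZD4*.

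To compare levels between genes, reads were scaled by the length of the merged exons and to a total of 1000000 per library (TPM). Together the family summed to 229.6 ± 3.86 TPM in SW480 WT and 232.1 ± 17.4 TPM in SW480 KO libraries (SD, n = 4). The length-scaled sum thus differed by less than the spread between the KO libraries, whereas its make-up did not stay the same. On the other scaling, the summed normalized counts were 6858 ± 154 in WT and 7967 ± 980 in KO libraries (SD, n = 4), at 6644 to 6995 and 6999 to 9036, so that these sums did not overlap. *FZD7* held 39.5% ± 2.19 of the sum in WT and 22.3% ± 0.527 in KO libraries. *FZD1* went from 12.6% ± 0.449 to 36.0% ± 4.36 and replaced *FZD7* in the first rank. *FZD6* held 22.2% ± 0.841 and 20.7% ± 1.64. With coding lengths in place of merged exons *FZD7* remained first in WT cells, at 39.8%, and *FZD1* in KO cells, at 44.2%.

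In the other lines *FZD6* headed the family. In HT29 it held 50.1% ± 2.97 of the length-scaled sum with and 42.2% ± 3.25 without β-CATENIN, and in HCT116 60.5% ± 2.95 and 65.8% ± 2.45 (SD, n = 4). In HT29 *FZD7* at 22.9% ± 3.06 and *FZD5* at 19.7% ± 2.07 came next in WT cells, and their ranges overlapped. With coding lengths *FZD5* led in HT29 KO cells, at 37.3% against 28.7% for *FZD6*, and *FZD5* at 30.4% lay ahead of *FZD7* at 23.4% in HT29 WT cells, so that this order depends on the length used. In HCT116 WT cells *FZD7* and *FZD5* held 10.2% ± 1.07 and 8.21% ± 0.280 and *FZD3* 5.51% ± 0.670, but with coding lengths *FZD3* came second at 14.6%, before *FZD5* at 12.6% and *FZD7* at 10.4%. The summed level was 93.5 ± 16.1 TPM in WT and 75.9 ± 29.6 TPM in KO libraries of HT29, and 127.6 ± 10.3 and 145.2 ± 26.3 TPM in HCT116. HT29 KO 38B had the lowest sum, 37.8 TPM against 68.1 in KO 38A, while the summed normalized counts of these libraries were 2083 and 2404. The length-scaled level of this library was therefore lower relative to its round A than its normalized counts were.

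**Figure D2:**
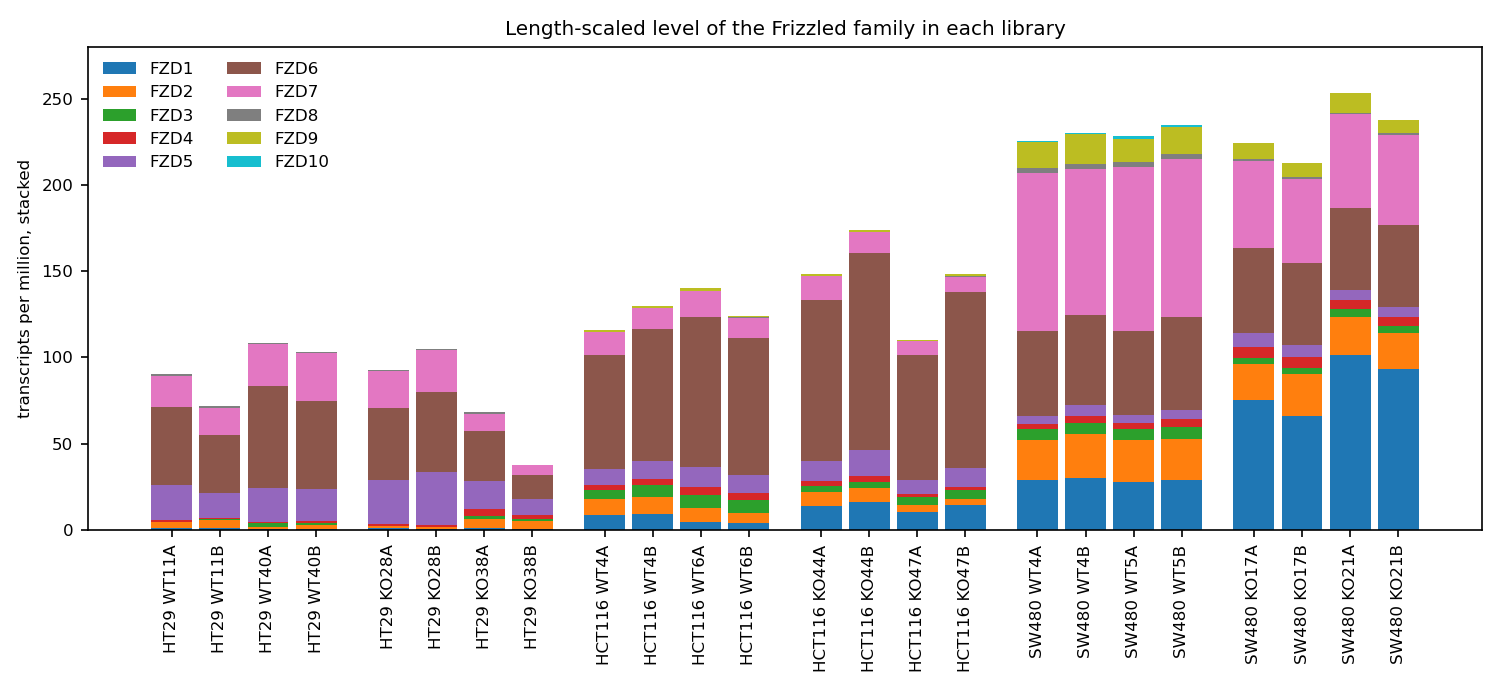
Stacked length-scaled levels (TPM) of the Frizzled genes for each of the 24 libraries. The SW480 bars have similar heights in WT and KO libraries, at 225.6 to 234.7 and 213.0 to 253.3 TPM, with a larger *FZD1* and a smaller *FZD7* segment in KO.

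In HCT116 the knock-out was accompanied by a rise of *FZD1* alone among the 8 members tested, and by a smaller fall of *FZD3*. Over all genes 5.06% of 15404 were called in this line, and 14.0% had an adjusted p under 0.05. *FZD1* was at 404, 394, 205 and 178 in WT 4A, 4B, 6A and 6B and at 634, 701, 506 and 642 in KO 44A, 44B, 47A and 47B. The groups did not overlap, but the WT clones lay far apart. The log2 fold change was 1.16 (standard error 0.26, limma adjusted p = 0.0147). The WT clones differed by nearly as much, with clone 6 lower than clone 4 by 1.06 on the log2 scale (standard error 0.16, limma adjusted p = 0.00868). Without WT clone 6 the log2 fold change was 0.63 (limma adjusted p = 0.0612), and without library WT 6B it was 0.95 (limma adjusted p = 0.0334), so that the gene was no longer called. With the clones averaged the limma adjusted p was 0.177, and without KO clone 44 it was 0.0965.

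*FZD3* (ENSG00000104290, GRCh37 chromosome 8 from 28351722 to 28431784, plus strand) was at 506, 593, 651 and 712 in HCT116 WT 4A, 4B, 6A and 6B and at 324, 326, 426 and 493 in KO 44A, 44B, 47A and 47B. Its groups did not overlap. The log2 fold change was −0.66 (standard error 0.17, limma adjusted p = 0.0241) and had an adjusted p under 0.05 in 12 of 21 alternatives. In SW480 the same gene differed by −0.67. The test of the difference between these effects gave −0.00 with a 95% interval from −1.96 to 1.95 (limma adjusted p = 0.999). This interval is too wide to show that the effects are alike. It comes from a fit that shares 1 spread over all 24 libraries, those of HT29 included. The standard error was 0.94 in that fit, against 0.17 in HCT116 and 0.11 in SW480 alone.

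*FZD6* in HCT116 was at 1766 to 2218 in WT and 2039 to 2916 in KO libraries (log2 difference 0.35, standard error 0.13, limma adjusted p = 0.0931). *FZD5*, at 423 to 521 and 409 to 657, and *FZD7*, at 329 to 427 and 243 to 428, overlapped between genotypes. *FZD2* was at 217, 227, 188 and 135 in WT 4A, 4B, 6A and 6B and at 203, 190, 105 and 91.4 in KO 44A, 44B, 47A and 47B, where KO 47 was the clone that lay low. *FZD9* lay at 10.2 to 25.9 in WT and 8.56 to 17.9 in KO libraries. *FZD8* did not pass the filter in HCT116, with 4.59 to 12.0 in WT and 0 to 16.2 in KO libraries (exact two-sided permutation test, p = 0.371). Without KO 47A, the library that stood apart, *FZD1* (log2 fold change 1.25, limma adjusted p = 0.0211) and *FZD3* (−0.71, limma adjusted p = 0.0347) kept their direction and their side of the threshold.

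In HT29 no member of the 8 tested was called between KO and WT, where 2.30% of 14921 genes were. None of the 8 had an unadjusted limma p under 0.05, where 2417 of 14921 genes did. Of these 8 members, edgeR and DESeq2 called none either, and the share of all genes that they called is not given here. For 7 of the 8 members, all but *FZD8*, the log2 difference between the KO clones of HT29 was larger in size than that between genotypes. Across the family the intervals of the KO effect were correspondingly wide. *FZD3* was at 34.6, 28.4, 189 and 125 in WT 11A, 11B, 40A and 40B and at 18.1, 10.8, 166 and 188 in KO 28A, 28B, 38A and 38B. Clones WT 40 and KO 38 were thus high and WT 11 and KO 28 low. Its KO effect was −0.45 with a 95% interval from −2.79 to 1.88 (limma adjusted p = 0.851).

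*FZD2* showed the opposite arrangement among WT clones, with 77.8, 120, 23.7 and 61.4 in WT 11A, 11B, 40A and 40B, and the same among KO clones, with 29.2, 18.6, 137 and 180 in KO 28A, 28B, 38A and 38B. *FZD7* was at 511, 507, 758 and 879 in WT 11A, 11B, 40A and 40B and at 725, 769, 308 and 267 in KO 28A, 28B, 38A and 38B. KO 28 lay within the WT range and KO 38 below it (log2 difference −0.48, 95% interval −1.36 to 0.41, limma adjusted p = 0.564). *FZD5* (ENSG00000163251, GRCh37 chr2:208627322-208634630, minus strand) was at 894, 712, 929 and 901 in the WT libraries in the same order and at 1315, 1499, 743 and 642 in the KO libraries, with KO 28 above all of them and KO 38 near or below their lower end (log2 difference 0.20, 95% interval −0.44 to 0.85, limma adjusted p = 0.746). *FZD1* stayed low at 27.6 to 60.8 in WT and 24.6 to 64.4 in KO libraries. *FZD6* was at 971 to 1592 and 590 to 1276, and *FZD8* at 9.88 to 40.3 and 9.08 to 21.8. *FZD9* had 1 read over all 8 HT29 libraries.

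*FZD4* (ENSG00000174804, GRCh37 chr11:86656721-86666437, minus strand), the receptor of Norrin in retinal vessels, needs a separate reading. The exons of *PRSS23*, a protease gene on the opposite strand, cover 1399 of its 7387 exonic bases, or 18.9%, and the library kit does not keep the strand, so that reads of the shared stretch cannot be assigned to 1 of these genes with certainty. *FZD4* was at 36.5, 45.6, 43.5 and 53.9 in HT29 WT 11A, 11B, 40A and 40B and at 37.2, 49.9, 197 and 183 in KO 28A, 28B, 38A and 38B. The rise was in KO 38 and not in KO 28. *PRSS23* was at 491 to 648 in WT and 897 to 1811 in KO libraries of this line. In HCT116 *FZD4* was at 136 to 208 in WT and 75.2 to 147 in KO libraries (log2 difference −0.64, limma adjusted p = 0.129), whereas *PRSS23* went from 63.1 to 152 up to 360 to 868. In SW480 *FZD4* was at 143 to 224 in WT and 241 to 293 in KO libraries (log2 difference 0.63, limma adjusted p = 0.00824, or 0.0669 with the clone as a random effect and 0.0526 with the clones averaged), beside *PRSS23* at 5551 to 8637 and 8702 to 9233. The part of *PRSS23* reads in the *FZD4* values was not tested.

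The spread between clones of 1 genotype was then measured in its own right, with the rounds as the only source of error. In HT29 clone KO 38 differed from KO 28 in 5 of the 8 members by the call, where 12.5% of all genes were called. *FZD3* was higher in KO 38 by 3.57 on the log2 scale (standard error 0.35, limma adjusted p = 0.000582), *FZD2* 6.49-fold (limma adjusted p = 0.00978) and *FZD4* 4.33-fold (limma adjusted p = 0.00293). *FZD7* was lower in KO 38 by 1.38 (standard error 0.19, limma adjusted p = 0.00259) and *FZD5* by 1.02 (standard error 0.20, limma adjusted p = 0.0125). Between the HT29 WT clones only *FZD3* was called, with WT 40 higher by 2.26 (standard error 0.35, limma adjusted p = 0.00747), and 7.58% of all genes were.

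In HCT116 the call between WT clones fell on *FZD1*, as given above, where 1.44% of all genes were called. No member of the 8 was called between KO 47 and KO 44, where 3.28% of genes were, but *FZD2* (a mean of 98.1 against 197, limma adjusted p = 0.0176) and *FZD4* (log2 difference −0.91, limma adjusted p = 0.0190) had an adjusted p under 0.05, as 7.16% of genes did. With the round as a block *FZD3* (limma adjusted p = 0.00977), *FZD5* (0.0315) and *FZD7* (0.00874) were under 0.05 as well, 5 of the 8 members in all, beside 21.5% of genes, and still no member was called. In edgeR *FZD2* was called, at −1.02 (adjusted p = 0.0194). In SW480 no member of the 9 was called between WT clones, where 1.97% of genes were, or between KO clones, where 4.61% were. The largest differences between the SW480 KO clones were −0.82 for *FZD8* (limma adjusted p = 0.0389) and 0.55 for *FZD1*.

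Whether the KO effect differed between lines was tested directly in 1 limma fit of all 24 libraries. The fit uses 1 spread per gene, so that the spread between HT29 clones enters every contrast. The effect on *FZD1* was larger in SW480 than in HT29 by 1.60 on the log2 scale (standard error 0.40, adjusted p = 0.00919), and of the 8 members tested in both lines it alone differed, where 13.9% of 13744 genes did. With the clones averaged the limma adjusted p was 0.228. Between HCT116 and HT29 none of 7 members passed, with 1.20 for *FZD1* (standard error 0.40, limma adjusted p = 0.0720), −1.65 for *FZD4* (standard error 0.55, limma adjusted p = 0.0691) and 0.79 for *FZD6* (standard error 0.27, limma adjusted p = 0.0729), where 7.76% of 13550 genes passed. Leaving out single libraries moved this count between 0 and 3. Without HT29 KO 28A all 3 of these passed, with limma adjusted p = 0.0268, 0.00966 and 0.031, and without HT29 KO 28B *FZD4* (0.0256) and *FZD6* (0.0224) did. *FZD1* also passed without HT29 WT 40B (0.0396) or HCT116 WT 4A (0.0468), and *FZD6* without HT29 WT 11B (0.0363). Between SW480 and HCT116 none of 8 members passed, where 12.1% of 14115 genes did, and *FZD1* differed by 0.40 with a 95% interval from −0.44 to 1.24. At an unadjusted limma p under 0.05 there were 3 members between HCT116 and HT29, beside 2945 of 13550 genes. Between SW480 and HCT116 there was 1, *FZD4*, beside 3430 of 14115 genes. Between SW480 and HT29 it was *FZD1* alone, beside 3622 of 13744 genes.

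Wild-type levels of most members differed between lines. Between SW480 and HT29 WT clones 8 of 9 members were called, where 40.0% of 18609 genes were. Between SW480 and HCT116 it was 6 of 9, where 39.9% were, and between HCT116 and HT29 5 of 9, where 37.3% were. *FZD1* rose in the order HT29, HCT116, SW480, with 43.5 ± 14.8, 295 ± 120 and 1225 ± 60.8 (SD, n = 4), and no WT library of 1 line overlapped the next. SW480 exceeded HT29 by 4.85 on the log2 scale (standard error 0.29, limma adjusted p = 9.74e-13). These counts include *FZD9*, which passed the filter on low values only through the lines where it was present. It had 1 read in the 4 HT29 WT libraries, 10.2 to 25.9 in HCT116 and 190 to 243 in SW480 WT libraries. Between SW480 and HCT116 the count also includes *FZD8*, which did not pass this filter in HCT116 on its own. *FZD9* lies in the region deleted in Williams syndrome and has been studied mainly in the hippocampus and in bone.

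*FZD5* ran the other way, with 859 ± 99.2 in HT29, 468 ± 42.1 in HCT116 and 224 ± 22.4 in SW480 WT libraries, and no line overlapped the next. SW480 was below HT29 by 1.93 on the log2 scale (standard error 0.21, limma adjusted p = 3.37e-08) and below HCT116 by 1.06 (standard error 0.21, limma adjusted p = 0.000130). *FZD7* was at 2548 ± 136 in SW480, 664 ± 186 in HT29 and 378 ± 44.3 in HCT116. SW480 exceeded HT29 by 1.98 (standard error 0.27, limma adjusted p = 1.09e-06), and HCT116 was below HT29 by 0.78 (standard error 0.27, limma adjusted p = 0.0165), which was not called. *FZD8* was at 76.9 ± 7.52 in SW480, 22.7 ± 14.7 in HT29 and 9.31 ± 3.32 in HCT116, and the HT29 and HCT116 libraries overlapped.

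*FZD3* was low in HT29 WT cells, at 94.2 ± 77.0, and at 616 ± 87.5 in HCT116 and 538 ± 24.3 in SW480, the latter overlapping each other. *FZD2* followed the order HT29, HCT116, SW480 with 70.6 ± 39.7, 192 ± 41.4 and 560 ± 15.9. Its call between HCT116 and HT29 (1.61, standard error 0.52, limma adjusted p = 0.0113) was lost without HT29 WT 40A (1.17, limma adjusted p = 0.0617) and with the clones averaged (limma adjusted p = 0.121). *FZD6* varied least, at 1282 ± 279 in HT29, 1995 ± 197 in HCT116 and 1269 ± 62.9 in SW480, and HCT116 exceeded HT29 by 0.66 (standard error 0.19, limma adjusted p = 0.00482). *FZD4* was at 44.9 ± 7.16 in HT29, 166 ± 33.0 in HCT116 and 180 ± 39.6 in SW480, where the last 2 overlapped. In bulk libraries of clones a lower level in all cells and fewer cells with the transcript cannot be told apart.

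Over the 6 groups of line and genotype, *FZD1* was ordered SW480 KO, SW480 WT, HCT116 KO, HCT116 WT and then both HT29 groups, and only the HT29 groups overlapped each other. For *FZD7* the SW480 WT and SW480 KO groups stood above the rest, and the HT29 and HCT116 groups overlapped in their order. For *FZD5* the genotypes of a line overlapped in all 3 lines. Groups of different lines next to each other by their means did not overlap, but HT29 KO reached down to 642 in KO 38B and HCT116 KO up to 657 in KO 44B, so that these groups did. The *FZD6* groups overlapped at every step of the order except between HCT116 WT and HT29 WT.

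Other genes of the receptor level were taken from fixed lists by their role. Over all tested genes, 1.90% were called higher and 0.402% lower in HT29 KO, 3.17% and 1.89% in HCT116 KO, and 10.7% and 6.76% in SW480 KO clones. Of the ligases, LGR receptors and R-spondins that set Frizzled turnover, 0 were higher and 2 of 5 tested were lower in HT29, 1 of 4 in HCT116 and 2 of 4 in SW480. As a median, the list's log2 fold change was −1.14, −0.46 and −1.22, beside 0.03, −0.01 and −0.00 for all genes. *RNF43* fell from 1726 ± 753 to 60.2 ± 17.6 in HCT116 (log2 fold change −4.76, limma adjusted p = 5.64e-06) and from 2906 ± 504 to 369 ± 19.3 in SW480 (−2.96, limma adjusted p = 2.43e-08). In HT29 it was at 3613 to 4537 in WT and 3089 to 6346 in KO libraries. *ZNRF3* fell in SW480 (−2.36, limma adjusted p = 3.09e-09) and in HT29 (−1.14, limma adjusted p = 0.0175, or 0.504 with the clones averaged). In HCT116 *ZNRF3* was at 618 to 697 in WT and 382 to 460 in KO libraries. That fall was under the threshold of size (−0.64, limma adjusted p = 0.00391, or 0.120 with the clones averaged). *LGR5*, an R-spondin receptor and stem cell marker, fell in HT29 from 927 ± 166 to 84.9 ± 84.2 (−4.36, limma adjusted p = 0.0422, or 0.783 with the clones averaged). With the clones averaged in HT29, the limma adjusted p was 0.0594 for the edited gene *CTNNB1* itself and 0.698 for *AXIN2*. A high value in that setting therefore does not show that a gene is unchanged in HT29, here or for the genes below.

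Among co-receptors and Frizzled partners, 1 of 6 tested was lower in HT29, none of 9 was called in HCT116, and 3 of 10 were higher in SW480. *ROR1*, a receptor tyrosine kinase with a Frizzled-like domain that binds WNT5A, fell in HT29 from 1924 ± 430 to 319 ± 79.5 (log2 fold change −2.60, limma adjusted p = 0.000672, or 0.227 with the clones averaged). In SW480 it rose from 265 ± 45.4 to 1477 ± 86.9 (2.49, limma adjusted p = 9.73e-08). The test of whether these effects on *ROR1* differ between the lines is not reported here. *ADGRA2* (1.31, limma adjusted p = 0.000179) and *RECK* (1.00, limma adjusted p = 1.37e-05), which together serve WNT7 signalling through Frizzled in brain vessels, also rose in SW480. *RECK* lay at the threshold of size and was called in 10 of 21 alternatives.

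The secreted Frizzled-binding antagonists were nearly silent in HT29 and HCT116, where none of the 6 passed the filter on low values. The SW480 level of *FRZB* was 3.38 ± 0.493 with and 23.2 ± 8.43 without β-CATENIN (SD, n = 4). It passed the filter only through the KO libraries, so that no p is given. *SFRP5* fell in SW480 from 226 ± 68.4 to 68.7 ± 50.2 (−2.06, limma adjusted p = 0.0156, or 0.0866 with the clones averaged). Of the genes listed as LRP antagonists, 1 of 4 tested was lower in HT29, 0 of 3 were called in HCT116 and 3 of 6 were higher in SW480. *SOSTDC1* was at 119 to 300 in WT and 1.90 to 20.1 in KO libraries of HT29, and at 0 to 1.96 in WT and 27.8 to 48.6 in KO libraries of SW480. *SOST* was at 0 in SW480 WT and 11.3 to 21.5 in KO libraries. These 2 genes also passed the SW480 filter only through the KO libraries, and the count of 3 includes them. *DKK3*, whose action on LRP was not tested here, rose in SW480 (1.47, limma adjusted p = 7.20e-05).

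Inside the cell, 0 of 4 Dishevelled genes and regulators tested in HT29, 0 of 6 in HCT116 and 1 of 6 in SW480 were called, the last being *DACT3* (1.13, limma adjusted p = 0.00688, or 0.0737 with the clones averaged). Of the planar cell polarity core, 0 of 6, 1 of 7 and 3 of 8 were called. *PRICKLE1* rose in HCT116 (1.40, limma adjusted p = 0.0224, or 0.154 with the clones averaged) and in SW480 (3.22, limma adjusted p = 1.26e-07), and the other 2 called in SW480 were lower in KO. *VANGL2* was at 10.8 to 13.5 in WT and 2.80 to 4.59 in KO libraries there, and *PRICKLE2* at 13.1 or more and at 8.47 or less. Both passed the filter only through the WT libraries, so that their calls carry no weight of their own. *SMO*, the Hedgehog pathway member of the same receptor class as the Frizzleds, fell in SW480 from 209 ± 27.3 to 44.1 ± 22.2 (−2.33, limma adjusted p = 9.78e-05) and had no read in HT29. *SHISA2*, whose product holds Frizzleds back in the endoplasmic reticulum, fell as well (−1.30, limma adjusted p = 0.00226, or 0.0543 with the clones averaged).

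**Figure D3:**
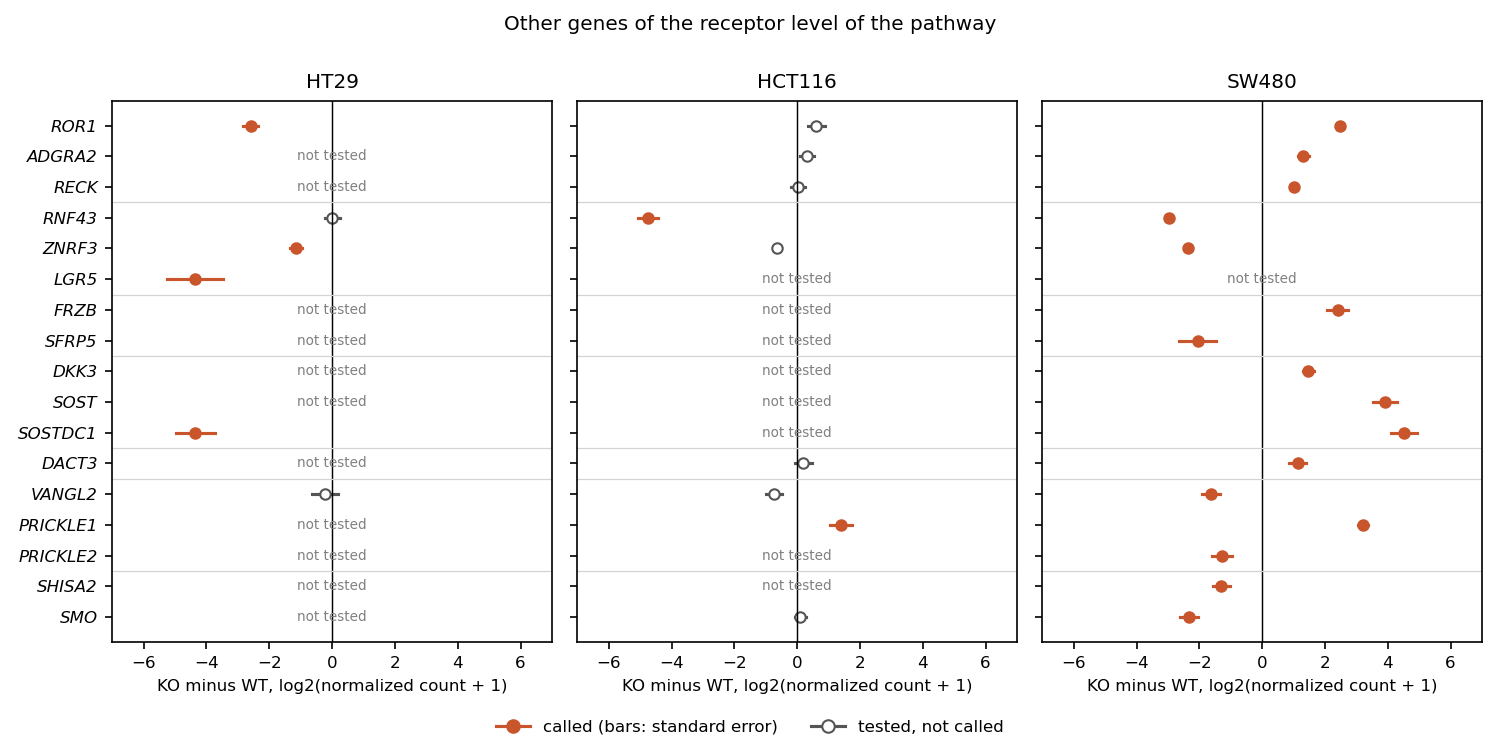
KO minus WT in log2(normalized count + 1) for genes of the receptor level that were called in at least 1 line, with standard errors from limma and grey lines between the lists. *ROR1* lies at −2.60 in HT29 and 2.49 in SW480, and *RNF43* at −4.76 in HCT116 and −2.96 in SW480.

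Of the marker lists, *CDH17*, *KRT19* and *KRT20* were called higher in HT29 KO clones, in 9, 18 and 8 of 21 alternatives. With the clone as a random effect their limma adjusted p was 0.0887, 0.0721 and 0.0978, and with the clones averaged 0.677, 0.268 and 0.666. *CDH1* was called higher in HCT116 and *CDX2* lower in SW480 KO clones. *CDH17* was at 0 to 2.96 in HT29 WT and 18.2 to 475 in KO libraries, and *KRT20* at 58.2 to 104 in HCT116 WT and 0 to 0.983 in KO libraries, so that each passed the filter only through 1 genotype. Of 9 markers of other cell types, only 3 were tested in HT29 and 2 in HCT116, and none of these was called. Of the 6 tested in SW480, *CD14* and *VWF* were called higher. *COL1A2*, which passed the filter only through WT, was at 40.4 to 122 in SW480 WT and 0 to 0.941 in KO libraries. Their part in the Frizzled values was not tested.

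The genes whose levels most resembled *FZD1* over the 24 libraries, after centring each line, were *OSBPL1A* (Pearson r = 0.892), *STAMBPL1* (r = 0.891) and *MAST4* (r = 0.891) among 13027 genes. For *FZD8* they were *EIF2B5* (r = 0.839), *UBE2G2* (r = 0.835) and *ESF1* (r = 0.831) among 13028. The 24 points share clones and rounds, and the correlations only describe which genes moved alike. Near other members, *FZD4-DT*, which starts 221 bases from *FZD4* on the other strand, was at 5.87 to 8.27 in SW480 WT and 15.9 to 22.0 in KO libraries, and passed the filter only through the latter. *FBXO16*, whose start is 3927 bases from that of *FZD3*, was at 15.2 to 22.2 and 23.9 to 45.1 (0.84, limma adjusted p = 0.0198). *BAALC-AS1*, whose exons share 138 bases with those of *FZD6*, did not exceed 43.3 in any library. *MIR4288* and *RNA5SP259* within *FZD3* had no read, and a long non-coding RNA beside *FZD7*, ENSG00000273209, was at 19.6 or less in every library. Exons annotated as ENSG00000287528 share 318 of the 4050 exonic bases of *FZD8*, or 7.85%, and *MIR4683* shares 81 bases. Neither was analysed here, and their part in the *FZD8* values was not tested.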

How the data were processed

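Per the labels' processing notes, the authors used STAR 2.7.5b on GRCh37 for alignment and featureCounts 2.0.1 for counting. The values they deposited are a signal, namely counts divided by 1 DESeq2 size factor per library. In each library 100.0% of values were whole multiples of the value of 1 read, so reads could be recovered. The kit does not keep strand, and the strand setting of the counting is not given in the sources used here.

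Genes at 10 or more in at least 4 libraries of a line were compared in limma 3.58.1 (R 4.3.3, trend and robust variances) on log2(value + 1). Fold changes are on that scale, which understates changes of low genes. Called means a Benjamini-Hochberg adjusted p under 0.05 and a log2 fold change over 1 in size. Differences of the KO effect needed only the adjusted p. Members outside the filter were compared by an exact permutation test, chosen after seeing the data. Alternatives were edgeR 4.0.16 and DESeq2 1.42.0 on recovered reads, other scalings, pseudocounts and filters, clones averaged or as a random effect, rounds as a block, and libraries or clones left out. The scripts were tested on simulated data.

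The shared round letter was checked as a pairing from the difference of round A minus round B in each clone. These differences were correlated over genes for each pair of clones of a line. In HCT116 all 6 pairs correlated above 0.1 (0.182 to 0.374), in HT29 2 of 6 (−0.309 to 0.424) and in SW480 1 of 6 (−0.0411 to 0.127). A 3-read floor per library covers counting error only. All 10 members were named in every comparison. From each list at most 3 called genes per line were named, and for each called member the 3 most similar genes. The members and lists were chosen with earlier results of these data known. The authors' own comparisons were not used. The result for 1 marker of another cell type is not reported here.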

Additional observations from a re-analysis of the deposited data

Results flagged for a closer look

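Among 55 groups of 4 libraries, 6 held a library whose gap to the nearest other exceeded Dixon's 95% critical share of the group's range, where chance flags about 1 group in 20. *FZD5* was at 711.6 in HT29 WT 11B, against 893.9 to 928.7 in the other WT libraries, and at 257.3 in SW480 WT 4B, against 210.4 to 214.3. *FZD8* was at 65.64 in SW480 WT 5A, against 80.25 to 80.86. *FZD9* was at 173.7 in SW480 KO 21A, against 122.9 to 127.9. The remaining cases were single reads in groups otherwise at 0, *FZD9* in HT29 WT 11B at 1.014 and *FZD10* in HCT116 KO 47A at 1.07. The KO effect on *FZD1* was larger in SW480 than in HT29 by 1.598 on the log2 scale (standard error 0.405, limma adjusted p = 0.00919), by the test of the difference itself.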

How the results depend on the processing

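In SW480 the calls of *FZD1* and *FZD8* held in all 21 alternatives. Elsewhere the number of members called moved as follows, and the causes were not tested. The share of all genes called in each of these settings is not given here. The numbers therefore only describe the members and are not read as results about the family. Between KO and WT it was 1 in HT29 without KO clone 28 (*FZD4*), and 0 in HCT116 with clones averaged or without WT clone 6. edgeR gave 1 between the HCT116 KO clones and 1 for the KO effect between HT29 and HCT116. For the KO effect between HT29 and SW480 it was 0 with clones averaged and 2 with no filter, and between HCT116 and SW480 1 with no filter. The member added with no filter was *FZD10*, whose call rests on the SW480 WT libraries. Leaving out single libraries gave 0 to 1 in HCT116, 4 to 5 between WT HT29 and HCT116, and 0 to 3 for the KO effect between HT29 and HCT116. With the round as a replicate block, *FZD1* in HCT116 stayed called (limma adjusted p = 0.0243), while *FZD5* in SW480, where rounds did not pair the libraries, had 0.0596.

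Some values changed sign, none of them called. In HT29 without WT clone 11 these were *FZD1* 0.3548 and *FZD8* 0.3771, without WT clone 40 *FZD3* 0.6748 and *FZD2* −0.6537, without KO clone 28 *FZD5* −0.3065 and *FZD3* 1.329, and without KO clone 38 *FZD7* 0.2123, *FZD1* 0.2305, *FZD4* −0.04303 and *FZD2* −1.347. *FZD2* in HT29 was −0.001374 with a pseudocount of 0.5 and −0.04592 with TMM scaling. In HCT116 without KO clone 47 these were *FZD7* 0.04356, *FZD9* 0.1416 and *FZD2* 0.06371, without KO clone 44 *FZD5* −0.03646, and without WT clone 6 *FZD9* 0.06249. edgeR gave 0.0003641 for *FZD3* between SW480 WT clones, −0.0181 for *FZD2* between SW480 KO clones and −0.0654 for *FZD6* between SW480 and HT29 WT. With coding lengths 34 of 60 family shares moved by more than 1 SD.

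Leaving out single libraries also turned the sign of uncalled values, here as ranges. In HT29 *FZD1* lay between −0.2638 and 0.1864, *FZD3* between −1.079 and 0.2562 and *FZD2* between −0.5139 and 0.5559. In HCT116 *FZD9* lay between −0.3688 and 0.05174, and between SW480 and HT29 WT *FZD6* between −0.1141 and 0.1233. The KO effect in HCT116 against HT29 ranged from −0.04263 to 0.4648 for *FZD7*, −0.2351 to 0.1725 for *FZD5*, −0.9169 to 0.4185 for *FZD3* and −0.992 to 0.07783 for *FZD2*. In SW480 against HT29 it ranged from −0.06705 to 0.3405 for *FZD5*, −0.9217 to 0.4137 for *FZD3* and −0.6583 to 0.4114 for *FZD2*, and in SW480 against HCT116 from −0.0884 to 0.1125 for *FZD3*.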
